A study of Mus musculus with 45 samples.

Results

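Gene expression was compared between porous polycaprolactone scaffolds and spleens of healthy mice, as an immune infiltrate around an implanted foreign body against a lymphoid organ. The 6 libraries, 3 of control scaffolds and 3 of control spleens, were taken from the 45 libraries of the series, and 19646 of 55367 gene symbols had more than 10 counts over these 6 libraries and were tested. All mice were young adult female BALB/c animals without a transgene or a tumor. The scaffolds had been implanted under the skin of the upper back before the day on which the tumor-bearing mice of the series were inoculated with cancer cells, and all tissues were taken on day 14 after that day. A scaffold library holds everything that grew into or stayed attached to the explanted material, whereas a spleen library holds the whole organ. The labels do not say which scaffold and spleen came from the same mouse, so p-values measure only the spread between the samples of each tissue.

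A polymer implant is coated with protein soon after it is placed, and is then entered by neutrophils and monocytes. Macrophages that cannot ingest it fuse into multinucleated foreign body giant cells, which share with osteoclasts an equipment of fusion proteins, proton pumps and secreted proteases, and fibroblasts surround the material with a vascularized collagen capsule. The spleen filters blood: its white pulp holds B and T cells around arterioles, and its red pulp holds macrophages that recycle iron from aged red cells and, in mice, erythroid and megakaryocytic precursors.

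Library totals were 4767440, 6315116 and 6352761 counts for scaffolds 1, 2 and 3 and 5149589, 4334104 and 4638000 counts for spleens 1, 2 and 3. Levels are given as CPM, a library's counts scaled to a total of 1e+06, and 3 counts corresponded to between 0.472 and 0.692 CPM. Some libraries stood apart from the others of their tissue. Scaffold 2 was high in neutrophil and inflammatory genes, scaffold 1 nearly lacked the skeletal muscle genes of scaffolds 2 and 3, scaffold 3 was high in Schwann cell and epidermal genes, and spleen 2 was high in genes of the exocrine pancreas. These values are given with the results they touch.

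Of the 19646 genes, 7141 (36.3%) were called, that is, had in edgeR's quasi-likelihood test an adjusted p below 0.10 with more than a 2-fold change, and 3460 of them (17.6%) were higher and 3681 (18.7%) lower in scaffolds. The median log2 fold change (scaffold over spleen) of all genes was -0.07, and the median size of the change among called genes was 2.01. A change over 16-fold was found for 530 called genes higher and 526 lower in scaffolds. For 10855 genes (55.3%) the CPM values of the 3 scaffolds and the 3 spleens did not overlap, 4476 (22.8%) with the scaffolds higher and 6379 (32.5%) with the scaffolds lower, and 6729 genes (34.3%) were called as well. DESeq2 called 6351 genes (32.3%), and 2837 (14.4%) passed a stricter limit in edgeR, an adjusted p below 0.01 with more than a 4-fold change. With 36.3% of genes called, each list of genes is described by its counts and its median beside these values, and no list was tested as a set. A gene is said to have risen or fallen in scaffolds only if it was called, and numbers given for a gene without a unit are log2 fold changes. In bulk tissue, fewer cells of a type and less RNA per cell cannot be told apart.

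**Figure D1:**
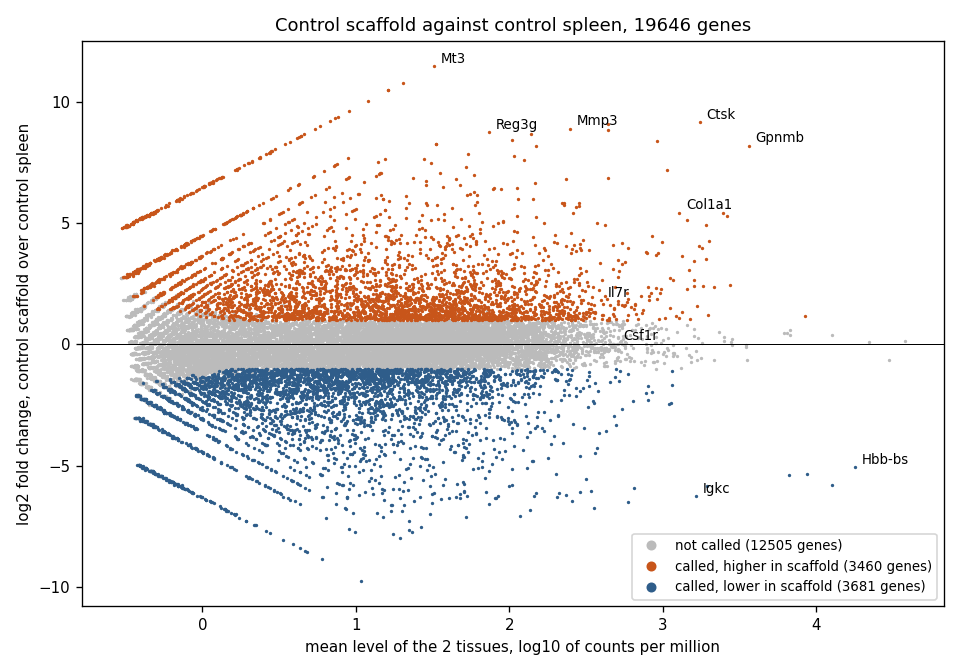
Log2 fold change of control scaffold over control spleen (vertical axis) against the mean level of the 2 tissues (horizontal axis, log10 CPM) for the 19646 genes, each point a gene. Orange points are the 3460 genes called higher in scaffolds and blue points the 3681 called lower, and among the 10 genes labelled by name Mt3 lies highest and Igkc lowest. The slanting lines of points at the left are genes with no or few counts in either the scaffolds or the spleens, and the fitted values there depend on the prior count.

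The genes with the largest rise in scaffolds, among called genes with separate libraries and a mean of at least 50 CPM in the higher tissue, were Mt3, Ctsk, Atp6v0d2, Mmp3, Ccl8, Reg3g, Cxcl2, Cxcl14, Mmp12 and Dcstamp. Mt3, a metallothionein best known from the brain, was at 78.9, 48.0 and 65.8 CPM in the scaffolds and had no count in any spleen, so that it was at least 100.3-fold higher against a floor of 3 counts per library. Reg3g, a secreted antimicrobial lectin, was at 142, 173 and 128 CPM in the scaffolds and 0.971, 0 and 0 CPM in the spleens, with a log2 fold change of 8.78 (SE 0.48, adjusted p = 2.11e-07). The 3 scaffolds lay far above the 3 spleens for both genes. Cxcl14, a chemokine of skin and stroma, was at 230.1, 201 and 190.3 CPM in the scaffolds and 1.17, 0.692 and 0 CPM in the spleens (log2 fold change 8.46, SE 0.41).

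Among the 10 genes with the largest fall by the same rule were 2210010C04Rik, Blk, Slc4a1, Iglc1, Apol11b, Cldn13, Iglc2 and Fcmr. The first of these rested on 1 library: 2210010C04Rik was at 3.30, 155 and 1.29 CPM in the spleens, at 0.839, 0 and 0 CPM in the scaffolds, and its log2 fold change went from -7.54 to -3.02 without spleen 2 (edgeR, adjusted p = 0.0529). Apol11b was at 2.10, 1.58 and 0.472 CPM in the scaffolds and 85.4, 269 and 85.2 CPM in the spleens and was also highest in spleen 2. The other 6 named here belong mostly to B cells and erythroid cells, and each was over 50-fold lower in scaffolds by the fitted fold change.

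**Figure D2:**
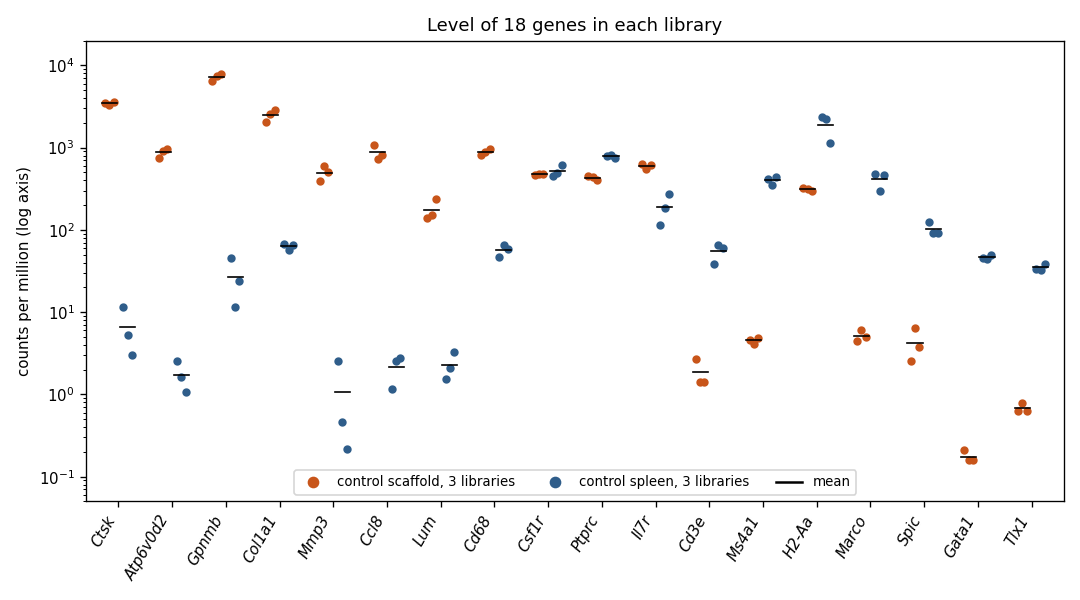
Levels of 18 genes in each library (vertical axis, CPM on a log scale), with orange points for the 3 control scaffolds, blue points for the 3 control spleens and a bar at each mean. The libraries of the 2 tissues do not overlap for any gene shown except Csf1r, whose scaffold values lie within the range of the spleens.

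All 16 measured genes of giant cells and macrophage fusion rose in the scaffolds, with a median log2 fold change of 6.52. With the 1 gene that had no spleen count set at its bound, the median was 4.90. Summed over the list, the level was 17296, 19298 and 20175 CPM in the scaffolds and 382, 308 and 315 CPM in the spleens. Among the genes of fusion, Dcstamp, the membrane protein that osteoclasts and giant cells need to fuse, was at 51.6, 65.6 and 81.1 CPM in the scaffolds and 0.583, 0 and 0 CPM in the spleens. The spleens held 3 Dcstamp counts in all, and the ratio of pooled levels was 317 (95% counting interval 108 to 1540.5), which covers counting error only. Its relative Ocstamp was at 9.44, 17.7 and 27.2 CPM in the scaffolds and 0.971, 1.85 and 1.72 CPM in the spleens, a log2 fold change of 3.74 (SE 0.42, adjusted p = 4.02e-05).

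Of the proton pump, Atp6v0d2, the subunit of the vacuolar ATPase found in osteoclasts, was at 755, 911 and 967 CPM in the scaffolds and 2.52, 1.62 and 1.08 CPM in the spleens, a log2 fold change of 9.10 (SE 0.31, adjusted p = 3.98e-08). Of the secreted proteases, cathepsin K (Ctsk), which degrades collagen in acid, was at 3477, 3324 and 3632 CPM in the scaffolds and 11.5, 5.31 and 3.02 CPM in the spleens, a log2 fold change of 9.18 (SE 0.47, adjusted p = 1.44e-07). Macrophage elastase (Mmp12) was at 1428, 1834 and 2171 CPM in the scaffolds and 10.3, 4.15 and 3.02 CPM in the spleens, a log2 fold change of 8.40 (SE 0.45). For each of these 3 genes the lowest scaffold was more than 50 times the highest spleen, and spleen 1 was the highest spleen.

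Among the other members, the lipid-sensing receptor Trem2 was at 338, 273 and 281 CPM in the scaffolds and 1.36, 1.15 and 0.862 CPM in the spleens, and Gpnmb, a glycoprotein of phagocytes that take up much material, was at 6407, 7453 and 7821 CPM in the scaffolds and 45.8, 11.5 and 23.7 CPM in the spleens. Osteopontin (Spp1) was at 2269, 2296 and 1797 CPM in the scaffolds and 26.6, 8.77 and 12.3 CPM in the spleens. None of these 3 genes overlapped between tissues, and their log2 fold changes were 8.18, 8.21 and 7.21. Mitf, a transcription factor of osteoclast and lysosome genes, rose by 3.62 (SE 0.17), the receptor Tnfrsf11a (RANK) by 2.09, and Itgb3, the integrin chain with the smallest change of the list, by 1.08 (adjusted p = 0.000183). In scaffold 1 the level was the lowest of the 3 scaffolds for 12 of the 16 genes.

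All 14 genes of lysosome and lipid handling rose as well, by a median of 2.72, and their summed level was 28259, 32449.6 and 31352 CPM in the scaffolds and 4571, 4053 and 4226 CPM in the spleens. Cathepsin L (Ctsl) was at 4506, 5585 and 5198 CPM in the scaffolds and 173, 135 and 120.1 CPM in the spleens, a log2 fold change of 5.32 (SE 0.27, adjusted p = 1.31e-07). Galectin-3 (Lgals3), which marks damaged lysosomes and is secreted by macrophages, was at 4560.3, 4802 and 4993 CPM in the scaffolds and 142, 116 and 111 CPM in the spleens (log2 fold change 5.44). Changes were smaller for the proteases Ctsb and Ctsd (2.46 and 3.52), the lipid droplet coat protein Plin2 (3.48), the cholesterol exporters Abca1 and Abcg1 (2.76 and 1.57) and apolipoprotein E (Apoe, 1.60). Psap, the precursor of the saposins, was less even, at 1689, 3303 and 3153 CPM in the scaffolds and 842, 375 and 191 CPM in the spleens (2.67), with scaffold 1 the lowest scaffold and spleen 1 the highest spleen.

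General macrophage genes did not move as a block. Of 14 tested, 6 rose, none fell and 8 were not called, and the median log2 fold change was 0.87. The receptor for colony stimulating factor 1 (Csf1r), on which macrophages depend, was at 465, 484 and 478 CPM in the scaffolds and 457, 493 and 618 CPM in the spleens, a log2 fold change of 0.04 (SE 0.17, adjusted p = 0.880), and the spleens spanned the scaffold values. F4/80 (Adgre1) was at 119, 172 and 159 CPM in the scaffolds and 89.3, 93.9 and 96.6 CPM in the spleens, which did not reach a doubling (0.85, adjusted p = 0.00151). The endosomal protein Cd68 was at 817, 877 and 972 CPM in the scaffolds and 47.0, 65.3 and 59.3 CPM in the spleens, a log2 fold change of 4.12 (SE 0.20, adjusted p = 1.17e-07). CD11b (Itgam), the endotoxin co-receptor Cd14 and lysozyme (Lyz2) rose by 3.28, 2.89 and 2.36.

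The macrophage genes of connective tissue and alternative activation mostly rose, and those of the splenic red pulp and marginal zone mostly fell. Of 16 genes on the first list 12 rose and 2 fell (median 3.21), and of 15 on the second 2 rose and 13 fell (median -2.97). On the first, Ccl8, a chemokine of resident macrophages of skin, was at 1085, 725 and 814 CPM in the scaffolds and 1.17, 2.54 and 2.80 CPM in the spleens (log2 fold change 8.84, SE 0.35, adjusted p = 5.26e-08). Retnla, a protein induced by interleukin 4, was at 183, 99.4 and 99.2 CPM in the scaffolds and 3.11, 5.08 and 4.74 CPM in the spleens (log2 fold change 5.07), and the coagulation factor F13a1, Clec10a and Mgl2 rose by 3.50, 3.12 and 3.49. The mannose receptor Mrc1 did not reach a doubling (0.78). Timd4, a receptor for dying cells on long-lived resident macrophages, went the other way, at 5.03, 4.28 and 3.31 CPM in the scaffolds and 115, 101 and 146 CPM in the spleens (log2 fold change -4.68). Folr2, the folate receptor of perivascular macrophages, was called higher at a low level, 0.629, 0.792 and 1.42 CPM in the scaffolds and 0.194, 0 and 0 CPM in the spleens, where 1 count in the spleens gave a pooled ratio of 13.8 (95% counting interval 2.16 to 575).

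On the red pulp list, the transcription factor Spic, which red pulp macrophages require, was at 2.52, 6.33 and 3.78 CPM in the scaffolds and 124, 92.8 and 92.1 CPM in the spleens, a log2 fold change of -4.42 (SE 0.29, adjusted p = 6.86e-07). The marginal zone scavenger receptor Marco was at 4.40, 6.02 and 5.04 CPM in the scaffolds and 473, 298 and 467 CPM in the spleens (-6.14), and the integrin chain Itgad at 0.420, 0.475 and 0.157 CPM in the scaffolds and 41.8, 24.2 and 8.84 CPM in the spleens (-5.95). The iron exporter Slc40a1 (ferroportin) fell by 17.2-fold, from a mean of 352 CPM in spleens to 18.2 CPM in scaffolds, and Vcam1, Cd5l and Treml4 had log2 fold changes of -2.97, -3.64 and -4.26. The 2 genes of this list that rose were the phagosomal metal transporter Slc11a1 (1.11) and ferritin heavy chain (Fth1), which stores iron and was at 1696, 2867 and 2432 CPM in the scaffolds and 711, 493 and 367 CPM in the spleens (log2 fold change 2.30). With either scaffold 2 or spleen 2 left out, 1 gene of the list was called higher. The genes called lower numbered 11 without scaffold 2, and 12 without scaffold 3, spleen 1 or spleen 3. Hmox1, which opens the heme ring, was at 278, 208 and 144 CPM in the scaffolds and 436, 788 and 868 CPM in the spleens, and its log2 fold change was -1.54 (adjusted p = 0.00183).

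Of 9 monocyte genes 4 rose, 3 fell and 2 were not called. Ly6c2, of classical monocytes, fell (-2.04), and so did Plac8 (-1.32) and Spn (-1.77). The chemokine receptor Ccr2 of the same cells rose by 1.20 (adjusted p = 0.000596), and coagulation factor X (F10) and angiotensin converting enzyme (Ace) rose by 3.93 and 4.03.

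Most inflammatory genes were called higher in scaffolds, with the highest levels in scaffold 2. Of 11 genes tested, 9 rose and none fell (median 2.99), and 10 of the 11 were highest in scaffold 2 among scaffolds. The summed level of the list was 1134, 2750.2 and 983 CPM in the scaffolds and 85.2, 88.6 and 75.7 CPM in the spleens. The neutrophil attractant Cxcl2 was at 78.9, 697 and 53.4 CPM in the scaffolds and 0.777, 1.15 and 0.216 CPM in the spleens, a log2 fold change of 8.71 (SE 1.22, adjusted p = 0.000185). Interleukin 1 beta (Il1b) was at 90.4, 618 and 54.6 CPM in the scaffolds and 44.1, 51.2 and 44.6 CPM in the spleens, and its change of 2.60 fell to 0.83 without scaffold 2 and was then not called (adjusted p = 0.0273). Cyclooxygenase 2 (Ptgs2) was at 3.57, 46.6 and 3.31 CPM in the scaffolds and 0.194, 0 and 0 CPM in the spleens, where 1 count in the spleens gave a pooled ratio of 269 (95% counting interval 47.9 to 10653). Tnf was at 16.4, 48.3 and 7.40 CPM in the scaffolds and 7.96, 8.54 and 7.98 CPM in the spleens, below every spleen in scaffold 3, and its call was likewise lost without scaffold 2 (log2 fold change 0.73, adjusted p = 0.154). The antagonist of interleukin 1 (Il1rn) was even across scaffolds, at 822, 1007 and 766 CPM in the scaffolds and 8.54, 8.54 and 7.33 CPM in the spleens, a log2 fold change of 6.89 (SE 0.24). Without scaffold 2, 7 of the 11 genes were called higher and 1 lower. Nos2 and Il6 were below the count minimum.

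Neutrophil genes mostly fell or did not pass the test. Of 13 genes, 1 rose and 7 fell (median -1.29), and without scaffold 2 none rose and 10 fell. The calprotectin subunits S100a8 and S100a9, the main cytosolic proteins of neutrophils, were at 274, 843 and 161 CPM and 141, 811 and 83.0 CPM in the scaffolds. In the spleens they were at 668, 927 and 538 CPM and 417, 599 and 333 CPM, and neither was called (-0.58 and -0.23). Without scaffold 2 both were called lower, at -1.52 and -1.81. The granule protein genes made in immature cells were low in every scaffold: Camp was at 1.26, 3.48 and 0.944 CPM in the scaffolds and 47.2, 36.5 and 12.7 CPM in the spleens (-3.90), Ngp fell by 11.6-fold, and myeloperoxidase (Mpo) was at 1.05, 0.633 and 0.787 CPM in the scaffolds and 9.71, 15.7 and 8.41 CPM in the spleens. Csf3r, the receptor for granulocyte colony stimulating factor, was the gene that rose (1.36, adjusted p = 0.0443), and it was not called without scaffold 2 (0.48) or without spleen 2 (1.34, edgeR adjusted p = 0.114).

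Mast cell proteases rose and eosinophil granule genes fell. Of 13 genes of both cell types 6 rose and 4 fell, and the mast cell receptor genes Kit, Fcer1a and Ms4a2 were not called (-0.62, 0.46 and -0.33). The mast cell proteases Cpa3, Cma1 and Tpsb2 were higher in scaffolds, with log2 fold changes of 2.50, 2.31 and 3.15, and Mcpt4 was higher with overlapping values (14.9, 9.66 and 13.5 CPM against 9.71, 2.77 and 1.72 CPM), a call lost without spleen 2 (edgeR, adjusted p = 0.105). The eosinophil granule protein Prg2 was at 1.47, 0.475 and 1.10 CPM in the scaffolds and 66.2, 63.5 and 30.8 CPM in the spleens (log2 fold change -5.58), and the eotaxin receptor Ccr3 at 11.1, 8.08 and 8.34 CPM in the scaffolds and 114, 111 and 106 CPM in the spleens (-3.43). Siglecf, a lectin of eosinophils and of some macrophages, rose (2.72). Histidine decarboxylase (Hdc), which makes histamine, was at 58.1, 297 and 40.3 CPM in the scaffolds and 13.2, 21.0 and 17.5 CPM in the spleens (3.10), and scaffold 2 was again the highest, with a log2 fold change of Hdc of 1.71 without it.

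**Figure D3:**
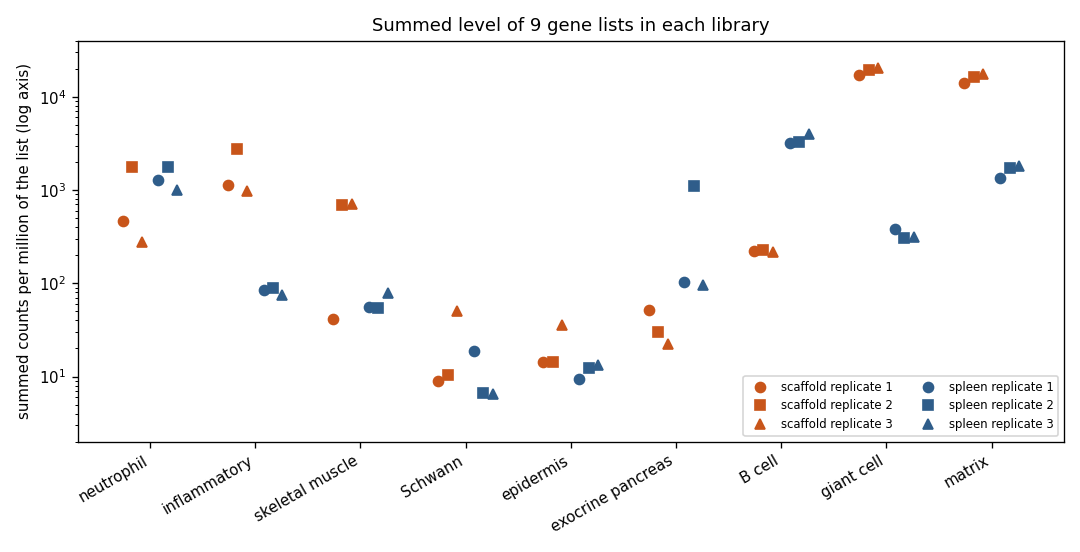
Summed CPM of 9 gene lists (vertical axis, log scale) in each of the 6 libraries, orange for scaffolds and blue for spleens, with 1 marker shape per replicate. Scaffold 2 is high in neutrophil and inflammatory genes, scaffold 1 is low in skeletal muscle genes and spleen 2 is high in exocrine pancreas genes, whereas the giant cell, matrix and B cell lists are even within each tissue.

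Of 25 chemokines tested 16 rose and 3 fell in scaffolds (median 2.99). The monocyte attractants Ccl2 and Ccl7 were at 32.5, 37.2 and 27.2 CPM and 11.1, 20.7 and 11.8 CPM in scaffolds. In the spleens Ccl2 was at 0.583, 0.692 and 0.431 CPM and Ccl7 had no count, so that Ccl7 was at least 22.7-fold higher and the log2 fold change of Ccl2 was 5.94 (SE 0.31). Ccl9 and Ccl6, mouse chemokines made by macrophages, rose by 5.85 and 3.40, eotaxin (Ccl11) by 6.01, and Ccl12 by 4.97. Ccl3 and Ccl4, made by activated macrophages, were at 63.1, 130 and 55.4 CPM and 43.6, 166 and 28.6 CPM in the scaffolds, highest in scaffold 2, and had log2 fold changes of 5.63 and 4.15. The 3 that fell were Cxcl13, which draws B cells into follicles (-3.09), the T cell product Ccl5 (-1.85) and the platelet chemokine Ppbp (-4.40). Cxcl9 and Cxcl10, which interferon gamma induces, were not called (-0.77 and -0.78), and neither was Cxcl12 (0.15).

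Of 15 chemokine receptors 5 rose and 7 fell. Among those that rose were Ccr1 (2.28), Ccr2 (1.20), Cxcr4 (1.04) and Cxcr1, whose 1 spleen count gave a pooled ratio of 80.2 (95% counting interval 14.1 to 3199). Several of those that fell guide lymphocytes: Ccr6 was at 2.31, 1.43 and 1.42 CPM in the scaffolds and 89.9, 97.8 and 107 CPM in the spleens, a log2 fold change of -5.69 (SE 0.24), Cxcr5 fell by 13.2-fold and Ccr7 by 6.80-fold. Ccr3, a receptor for Ccl11, fell although Ccl11 rose.

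**Figure D4:**
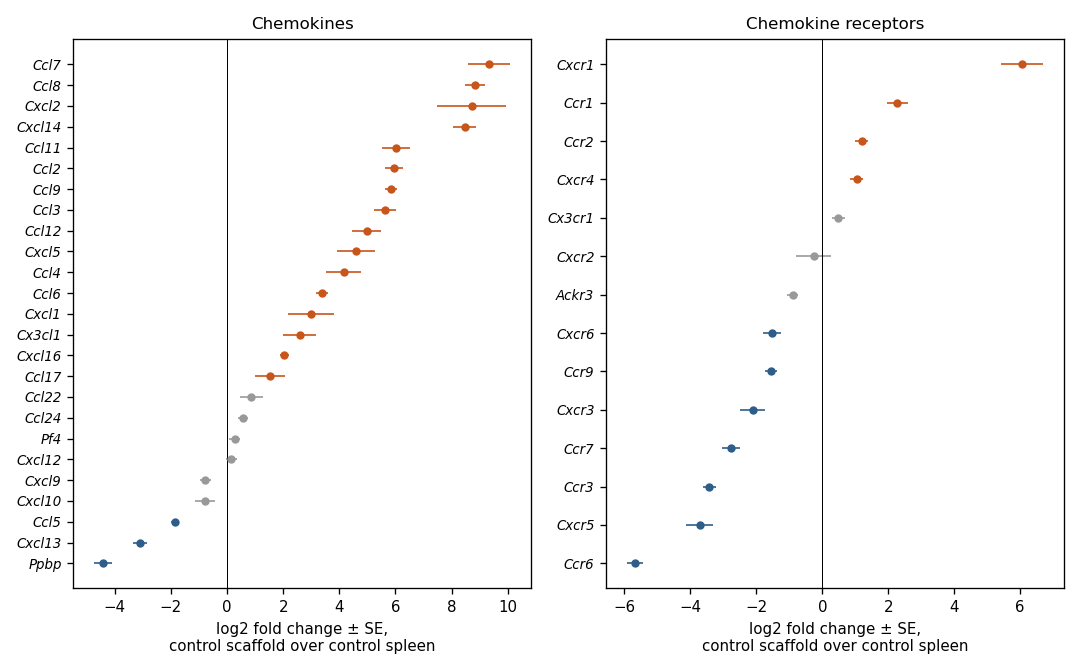
Log2 fold change of control scaffold over control spleen (horizontal axis, points with standard errors) for 25 chemokines and 14 of the 15 chemokine receptors tested, orange for called higher, blue for called lower and gray for not called. Ccl7, Ccl8, Cxcl2 and Cxcl14 lie highest among chemokines and Ppbp lowest, and the receptors run from Cxcr1 to Ccr6. The fitted value of Ccl7 depends on the prior count, since no spleen had a count of it.

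Connective tissue genes were among the most uniformly raised. All 14 fibroblast genes rose (median 3.18), as did 16 of 18 genes of collagens and other matrix proteins (median 4.20) and all 16 matrix proteases and their inhibitors (median 5.03). The protease list shares Ctsk, Mmp9, Mmp12 and Mmp14 with the giant cell list. The alpha chains of type I collagen, Col1a1 and Col1a2, were at 2049, 2553 and 2854 CPM and 2799, 3945 and 4294 CPM in the scaffolds. In the spleens they were at 67.8, 57.7 and 65.8 CPM and 155, 110.1 and 133 CPM, with log2 fold changes of 5.45 (SE 0.23) and 4.95 (SE 0.26). Col3a1 and Col6a3 rose by 5.12 and 5.41. The 2 matrix genes not called were elastin (Eln), at 13.8, 19.0 and 20.3 CPM in the scaffolds and 17.9, 21.0 and 19.6 CPM in the spleens, and Col14a1 (0.09).

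The fibroblast receptor Pdgfra was at 69.4, 88.7 and 78.1 CPM in the scaffolds and 11.5, 10.2 and 9.49 CPM in the spleens, a log2 fold change of 3.08 (SE 0.18, adjusted p = 3.40e-07). The small proteoglycans decorin (Dcn) and lumican (Lum) rose by 3.97 and 6.41, and Fap and Mfap5 by 5.41 and 5.30. Cthrc1, a secreted protein of injured tissue, was at 10.5, 16.9 and 17.3 CPM in the scaffolds and 0.194, 0 and 0 CPM in the spleens, where 1 count in the spleens gave a pooled ratio of 216 (95% counting interval 38.5 to 8573). The collagenase Mmp13 was at 248, 265 and 228 CPM in the scaffolds and 2.14, 0.461 and 1.51 CPM in the spleens, stromelysin 1 (Mmp3) at 392, 591 and 505 CPM in the scaffolds and 2.52, 0.461 and 0.216 CPM in the spleens, and gelatinase A (Mmp2) at 122, 166 and 196 CPM in the scaffolds and 6.21, 6.92 and 3.67 CPM in the spleens. Their log2 fold changes were 7.60, 8.91 and 5.00, and the protease inhibitor Timp1 rose beside them, by 6.00.

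In the transforming growth factor beta family the ligands differed. Of 13 genes 7 rose and 1 fell. Tgfb1, the ligand of immune cells and platelets, was at 5.87, 6.97 and 8.03 CPM in the scaffolds and 15.3, 18.5 and 19.2 CPM in the spleens, lower in scaffolds (-1.17, adjusted p = 0.00134), whereas Tgfb2 and Tgfb3 rose by 2.33 and 1.89 and activin A (Inhba) by 3.48. The receptors Tgfbr1 and Tgfbr2 rose by 1.66 and 1.09. Of 10 genes of myofibroblasts, smooth muscle and pericytes 3 rose and 4 fell. Smooth muscle actin (Acta2) was at 85.2, 73.6 and 94.0 CPM in the scaffolds and 61.0, 57.7 and 52.0 CPM in the spleens, short of a doubling (0.73), and the pericyte gene Rgs5 was at 309.8, 262 and 258 CPM in the scaffolds and 23.1, 17.3 and 12.9 CPM in the spleens (4.12, SE 0.25). Myl9, Des and Tagln were lower in scaffolds (-1.30, -1.69 and -1.01), and the call of Tagln, just past a 2-fold change, was lost in 9 of 14 alternatives, among them DESeq2, where the fold was just short of 2, and leaving out scaffold 2 (-0.74), spleen 1 (-0.97) or spleen 3 (-0.92). With scaffold 2 or spleen 3 left out, 2 genes of this list were called lower.

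Genes of blood and lymphatic endothelium were split, with 3 of 14 higher and 5 lower. Pecam1 and Kdr, of endothelium in general, were not called (-0.39 and -0.67), and Cdh5, also of endothelium in general, rose (1.06, and 0.90 and not called without scaffold 2). Stab2, a scavenger receptor of sinusoids, was at 7.13, 7.13 and 6.14 CPM in the scaffolds and 142, 169 and 180 CPM in the spleens (log2 fold change -4.42, SE 0.19). Lyve1, of lymphatic vessels and of some macrophages, was at 32.1, 25.3 and 31.0 CPM in the scaffolds and 0.388, 0.231 and 0.862 CPM in the spleens (5.99), while Prox1, the transcription factor of lymphatic endothelium, fell (-3.41).

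Genes of adipocytes and skeletal muscle, and some of epidermis and Schwann cells, were called higher in scaffolds, and how much of their RNA came from tissue carried over with the scaffold was not tested. All 10 adipocyte genes rose (median 3.91, or 3.79 with 1 gene at its bound). Adiponectin (Adipoq) was at 62.7, 50.8 and 65.5 CPM in the scaffolds and 7.57, 4.38 and 4.53 CPM in the spleens, and Lpl, Fabp4 and Car3 rose by 4.28, 3.91 and 4.51. All 10 skeletal muscle genes were called higher, on the strength of scaffolds 2 and 3: the list summed to 41.1, 695 and 705 CPM in the scaffolds and 56.3, 53.8 and 78.1 CPM in the spleens, and muscle actin (Acta1) was at 0.420, 114 and 104 CPM in the scaffolds, within the range of the spleens in scaffold 1. Only 2 of the 10 genes had separate libraries. Of 8 epidermal genes 5 were called higher, and 2 without scaffold 3. The Schwann cell list, with 2 of 6 genes higher and 1 of 5 without scaffold 3, was highest in scaffold 3, with a sum of 9.02, 10.5 and 50.2 CPM in the scaffolds. Krt14 overlapped between tissues (1.39, adjusted p = 0.105), and Krt5 had no spleen count and was at least 5.11-fold higher. In the spleens the exocrine pancreas list summed to 102, 1099.9 and 96.8 CPM. All 10 of its tested genes were called lower in scaffolds, but 2 of 9 without spleen 2 and 1 by DESeq2, and pancreatic lipase (Pnlip) was at 1.75, 120.4 and 0.647 CPM in the spleens. Of 6 mesothelial genes 4 were lower in scaffolds, among them Upk3b (-5.11).

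B cell genes showed the opposite pattern to the giant cell genes: 15 of 16 fell, none rose, and the median log2 fold change was -5.76. CD20 (Ms4a1) was at 4.61, 4.12 and 4.88 CPM in the scaffolds and 413, 352 and 437 CPM in the spleens, a log2 fold change of -6.29 (SE 0.21, adjusted p = 3.98e-08). The B cell kinase Blk was at 0.420, 0.475 and 0.315 CPM in the scaffolds and 64.3, 64.6 and 52.4 CPM in the spleens (-7.00) and the lineage factor Pax5 at 1.68, 1.43 and 2.20 CPM in the scaffolds and 175, 161 and 145 CPM in the spleens (-6.32). For each of these genes the highest scaffold was under 5 CPM, and Ebf1, a B cell factor that stromal cells also express, was the gene not called (-0.92). Of 10 plasma cell genes 7 fell and 2 rose. The immunoglobulin chains Igkc and Ighm were at 3289.8, 3613 and 2902 CPM and 3972, 4526 and 2966 CPM in the spleens, with log2 fold changes of -6.26 and -5.84, and Jchain, which joins secreted antibody, of -5.94. Syndecan 1 (Sdc1), used as a plasma cell marker and also made by other cells, rose by 2.60, and so did Prdm1 (1.54).

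T cell genes fell with 1 exception. Of 16 genes 15 fell (median -3.74, or -3.59 with 1 gene at its bound). Cd3e was at 2.73, 1.43 and 1.42 CPM in the scaffolds and 39.0, 65.5 and 59.7 CPM in the spleens, a log2 fold change of -4.74 (SE 0.32, adjusted p = 9.02e-07), and Cd3d and Cd8a had changes of -4.19 and -4.93. Cd3g had few counts in scaffolds, at 0.629, 0.317 and 0.472 CPM against 23.1, 19.6 and 18.8 CPM in spleens. The exception was Il7r, the receptor for interleukin 7 on naive and memory T cells and innate lymphoid cells, which was at 627, 556 and 615 CPM in the scaffolds and 115, 183 and 272 CPM in the spleens, a log2 fold change of 1.84 (SE 0.26, adjusted p = 0.000227). All 3 scaffolds exceeded the highest spleen for Il7r, although they were far below the lowest spleen for Cd3e. Genes of NK and cytotoxic cells fell less, with 6 of 9 lower and none higher (median -1.39). The NK receptor Ncr1 was not called (-0.70), Nkg7 and perforin (Prf1) fell (-1.77 and -1.39), and granzyme B (Gzmb) was not called (-0.01, SE 0.40).

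The pan-leukocyte genes were closer together. Of 8 genes 1 rose and 3 fell (median -0.44), and CD45 (Ptprc) was at 449.5, 445 and 403 CPM in the scaffolds and 787, 818 and 746 CPM in the spleens, which did not reach a 2-fold difference (-0.69, SE 0.17, adjusted p = 0.00740). Genes of antigen presentation by MHC class II were mostly lower in scaffolds, with 9 of 12 genes fallen and 1 risen (median -2.42). H2-Aa was at 320.3, 318 and 297 CPM in the scaffolds and 2326, 2224 and 1128 CPM in the spleens, a log2 fold change of -2.44 (SE 0.29), and its master regulator Ciita at 8.60, 11.1 and 11.6 CPM in the scaffolds and 136, 142 and 112 CPM in the spleens (-3.47). H2-Ob and H2-DMb2, which B cells use, changed by -5.86 and -4.83. The gene that rose, the endosomal protease Ctss (2.42), is also on the lysosome list. Of 12 dendritic cell genes 10 fell and none rose (median -1.49), with Flt3 at -1.38, Zbtb46 at -1.43 and the cross-presenting cell markers Xcr1 and Clec9a at -2.15 and -3.11 on the log2 scale.

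Transcription factors of the spleen's own stroma fell in scaffolds. Of 7 spleen stroma transcription factors 5 fell and none rose (median -5.46, or -2.43 with Nkx2-5, which had no scaffold count, at its bound). Tlx1, without which no spleen forms, was at 0.629, 0.792 and 0.630 CPM in the scaffolds and 33.2, 33.0 and 39.0 CPM in the spleens, a log2 fold change of -5.46 (SE 0.27, adjusted p = 1.17e-07). Nkx2-3 was at 0, 0 and 0.472 CPM in the scaffolds and 35.0, 54.5 and 43.8 CPM in the spleens, where 3 counts in all scaffolds together gave a pooled ratio of spleen over scaffold of 255 (95% counting interval 86.8 to 1239). Tcf21 was at 1.05, 0.633 and 0.944 CPM in the scaffolds and 44.3, 51.5 and 39.0 CPM in the spleens (-5.51). Nkx2-5 had no count in scaffolds and was at least 5.33-fold lower there. Of 8 lymphoid stroma genes tested 4 rose and 2 fell: podoplanin (Pdpn), of lymphoid reticular cells and of fibroblasts and macrophages elsewhere, was at 436, 428 and 435 CPM in the scaffolds and 5.05, 9.23 and 11.0 CPM in the spleens (5.86), and the mucosal addressin Madcam1 at 0.420, 0.475 and 0.472 CPM in the scaffolds and 17.9, 28.6 and 27.0 CPM in the spleens (-5.50). Ccl19 and Ccl21a were below the count minimum.

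Genes of body position differed between the sites. Of 17 homeobox and dorsal skin genes tested 13 rose and 2 fell (median 2.86). Tbx15, a factor of dorsal dermis, was at 13.8, 19.6 and 20.3 CPM in scaffolds with no spleen count, at least 28.0-fold higher. Hoxd8 was at 7.13, 16.9 and 17.5 CPM in the scaffolds and 0.777, 0.461 and 1.51 CPM in the spleens (4.04), and Hoxc4, Hoxc6, Hoxc8 and Hoxc9 each rose, by 4.12, 4.10, 3.62 and 2.86. Hoxa5, in contrast, was at 4.40, 3.33 and 6.93 CPM in the scaffolds and 9.71, 14.8 and 13.8 CPM in the spleens (-1.21), and its call was lost without scaffold 2 (-0.98). Leaving out 1 library at a time gave 11 to 14 genes higher and 0 to 2 lower, and 13 of the 17 genes had a mean under 10 CPM in both tissues.

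Erythroid genes fell without exception among the 14 tested (median -5.93), and summed to 2437, 2023 and 2091 CPM in the scaffolds and 100225, 86459.6 and 86689 CPM in the spleens. The beta globin Hbb-bs was at 985, 863 and 905 CPM in the scaffolds and 42577, 32638 and 28919 CPM in the spleens, a log2 fold change of -5.08 (SE 0.32, adjusted p = 5.78e-07). Hba-a1 changed by -5.35, and since the globin genes have near-identical copies, their shares of reads are uncertain. The anion exchanger of the red cell membrane, Slc4a1, was at 2.31, 2.69 and 1.26 CPM in the scaffolds and 209.9, 264 and 339.6 CPM in the spleens (-6.85). Gata1, the master factor of the lineage, was at 0.210, 0.158 and 0.157 CPM in the scaffolds and 45.6, 43.8 and 49.4 CPM in the spleens, 1 count in each scaffold, for a pooled ratio of 269 (95% counting interval 91.7 to 1309). Tfrc, the transferrin receptor, which many dividing cells use, had the smallest change of the list (-1.28).

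Promoters of the erythroid genes, which fell together, were searched for the letters bound by GATA factors, AGATAA with its variants AGATAG plus TGATAA plus TGATAG, on both strands of the 250 bases before each RefSeq start (GRCm38.p6). At least 1 match was found in 7 of the 10 erythroid genes with a listed promoter, against 22.3% of the 12695 tested genes with one. Matches were also found in 6 of 11 giant cell genes, 6 of 12 lysosome genes and 4 of 11 B cell genes. The promoters of Alas2, which makes heme, of the erythroid factor Klf1 and of the blood group protein Rhag are shown in lower case, with the match in capitals. Alas2 lies on the plus strand at chrX:150547167-150547416, with the match starting 86 bases before the start.
Alas2: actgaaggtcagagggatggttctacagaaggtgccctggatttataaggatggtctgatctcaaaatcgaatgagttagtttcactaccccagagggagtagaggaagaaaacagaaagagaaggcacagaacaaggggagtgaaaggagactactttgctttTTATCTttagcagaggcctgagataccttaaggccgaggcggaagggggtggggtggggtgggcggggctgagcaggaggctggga
Klf1, on the plus strand at chr8:84901732-84901981, has its match 80 bases before the start.
Klf1: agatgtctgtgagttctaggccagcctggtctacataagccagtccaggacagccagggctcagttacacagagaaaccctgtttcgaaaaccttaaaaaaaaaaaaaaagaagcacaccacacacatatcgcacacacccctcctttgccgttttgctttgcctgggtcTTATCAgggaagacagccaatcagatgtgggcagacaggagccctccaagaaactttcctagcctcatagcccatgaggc
Rhag, on the plus strand at chr17:40810899-40811148, has its match 31 bases before the start.
Rhag: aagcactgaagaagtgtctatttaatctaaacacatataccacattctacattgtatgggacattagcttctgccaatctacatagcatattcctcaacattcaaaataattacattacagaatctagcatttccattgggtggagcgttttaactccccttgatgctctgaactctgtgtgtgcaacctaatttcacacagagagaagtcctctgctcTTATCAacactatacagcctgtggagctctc
For comparison, the E-box letters CACGTG or CATGTG, which Mitf and its relatives bind, were found in 4 of 11 giant cell genes, 4 of 12 lysosome genes and none of 10 erythroid genes, against 18.2% of tested genes, and in 4 of 11 B cell genes. Cathepsin D (Ctsd), on the minus strand at chr7:142387828-142388077, held 2, which start 245 and 98 bases before the start.
Ctsd: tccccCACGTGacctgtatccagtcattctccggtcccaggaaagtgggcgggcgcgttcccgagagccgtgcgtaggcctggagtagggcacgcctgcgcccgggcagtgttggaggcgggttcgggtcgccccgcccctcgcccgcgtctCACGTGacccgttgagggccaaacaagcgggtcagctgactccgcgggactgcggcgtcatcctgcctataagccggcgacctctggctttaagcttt
The letters CCACACCC, bound by Klf factors, were found in 1 of 10 erythroid genes and in 4.10% of tested genes, and the octamer ATTTGCAT in 1 of 11 B cell genes and in 1.66% of tested genes. Each of these was also found in 1 of 11 giant cell genes. A match describes the letters of a stretch and not a bound site. The motifs were counted apart, and the sequences and starts are those of RefSeq.

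The expression of these genes followed their group. Alas2 was at 0, 0.158 and 0.630 CPM in the scaffolds and 40.0, 14.8 and 13.4 CPM in the spleens, a log2 fold change of -6.07 (SE 0.70), Klf1 at 1.89, 1.27 and 0.787 CPM in the scaffolds and 95.3, 78.7 and 127 CPM in the spleens (-6.11), and Rhag at 1.26, 0 and 0.157 CPM in the scaffolds and 41.9, 39.9 and 33.6 CPM in the spleens (-6.32). Of 9 genes of megakaryocytes and platelets 8 fell (median -3.59), among them Itga2b (-2.61) and Gp9 (-5.96), while platelet factor 4 (Pf4), which macrophages also make, was not called (0.27). Cell cycle genes fell in 14 of 15 cases (median -1.93): Mki67 was at 45.7, 40.1 and 46.0 CPM in the scaffolds and 337, 349 and 423 CPM in the spleens (-2.90, SE 0.17), Top2a and Cdk1 fell by 3.81-fold and 2.95-fold, and Pcna was the gene not called (-0.66).

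**Figure D5:**
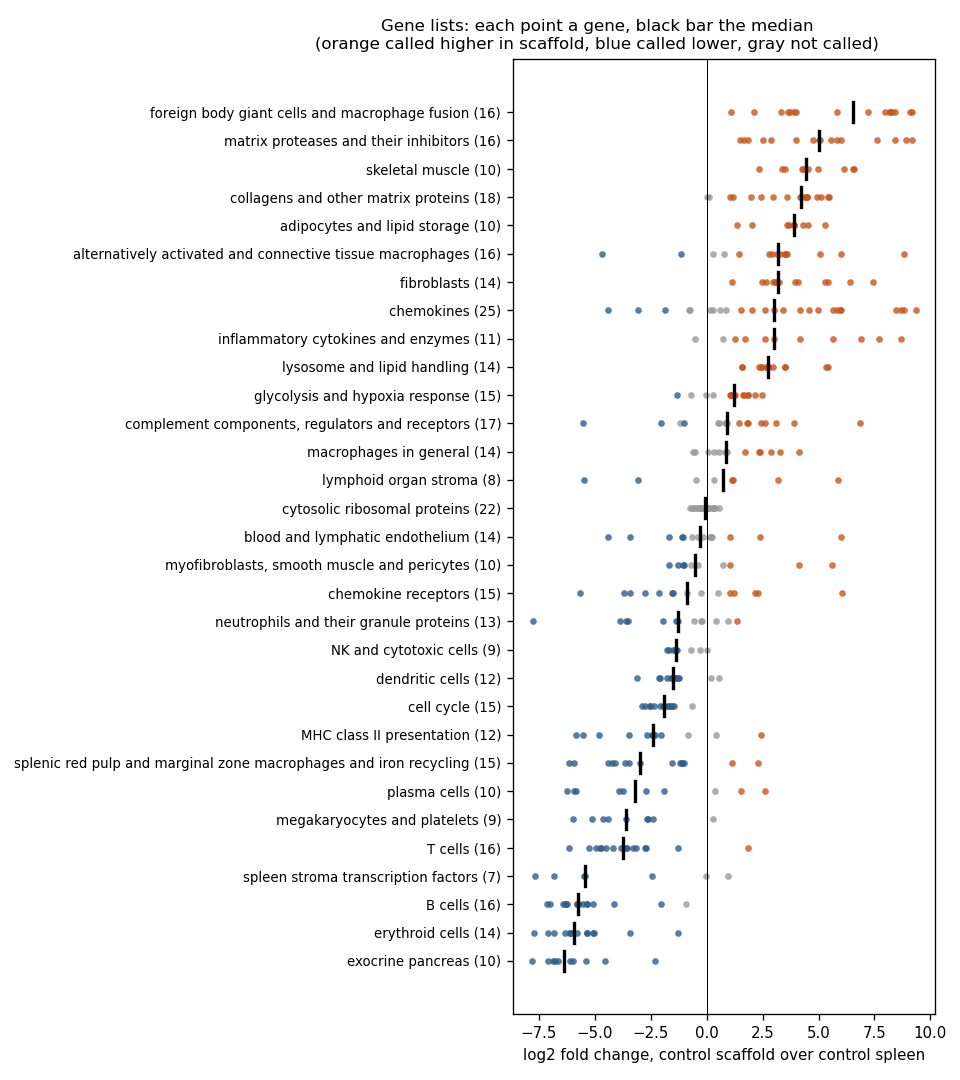
Log2 fold change of control scaffold over control spleen (horizontal axis) for the tested members of 31 gene lists, each point a gene and each black bar a list's median, with the number of tested genes in parentheses. Giant cell, matrix and protease lists lie entirely or almost entirely to the right, B cell and erythroid lists to the left, and the ribosomal list around 0; the exocrine pancreas and skeletal muscle lists rest on 1 and 2 libraries.

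Complement genes went in both directions. Of 17 genes 8 rose and 3 fell. The receptor for C3a on myeloid cells (C3ar1) was at 529, 438 and 417 CPM in the scaffolds and 4.08, 4.15 and 5.39 CPM in the spleens, a log2 fold change of 6.84 (SE 0.24, adjusted p = 3.98e-08), whereas the complement receptor of B cells and follicular dendritic cells (Cr2) was at 15.7, 9.34 and 10.7 CPM in the scaffolds and 527, 523 and 819 CPM in the spleens (-5.54). The 3 chains of C1q, C1qa, C1qb and C1qc, did not reach a doubling (0.89, 0.55 and 0.80), and adipsin (Cfd) rose by 3.90. The MS4A family of membrane proteins also went in both directions, with 3 of 11 genes higher and 5 lower. Ms4a7 and Ms4a6d, of macrophages, rose by 4.26 and 3.89, and Ms4a1 of B cells, Ms4a4b of T cells and Ms4a4c fell (-6.29, -3.13 and -2.38).

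Of 15 genes that interleukins 4 and 13 induce or that signal for them 7 rose and 1 fell (median 0.87), with Egr2 at 36.7, 53.4 and 55.4 CPM in the scaffolds and 5.24, 4.38 and 1.94 CPM in the spleens (3.79). Arginase 1 (Arg1) and Chil3, often used to mark this state, were low in both tissues. Arg1 was at 2.73, 1.90 and 2.36 CPM in the scaffolds and 0, 0 and 1.08 CPM in the spleens (2.79), and Chil3 at 2.31, 2.22 and 1.10 CPM in the scaffolds and 5.63, 6.23 and 2.16 CPM in the spleens (-1.16), where the call was lost without scaffold 2 or 3 and without spleen 1 or 2 (edgeR, adjusted p of 0.109, 0.212, 0.165 and 0.229) and with DESeq2 (adjusted p = 0.103). Of 15 genes of glycolysis and the hypoxia response 11 rose and 1 fell (median 1.21), among them hexokinase 2 (Hk2, 2.17), Aldoa (1.86) and Pgk1 (2.46), while Pfkl was not called (-0.71) and Vegfa fell (-1.33). None of the 22 ribosomal protein genes was called in either direction (edgeR, adjusted p under 0.10 and fold over 2), with 5 at an unadjusted p under 0.05, and DESeq2 called none. Without spleen 1, 3 of the 22 were called higher. Their median was -0.09, and 0.12 without spleen 1. Their summed level was 10915, 11953 and 11495 CPM in the scaffolds and 17853, 14823 and 11699 CPM in the spleens. Of the 9 genes of the scaffold signature that the study selected on scaffolds of this series, 2 rose and 1 fell, which is no independent evidence of a direction: Fhl1 and Spon2 were higher (1.16 and 1.26, with Fhl1 at 0.87 and not called without scaffold 3), Ifitm1 was lower (-2.13), and Dhx9 and Dusp12 were not called (-0.31 and 0.13).

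The same contrast was then fitted in mice that carried tumors of the 67NR, 4T07 or 4T1 line, whose 6 libraries per line are not shared with the control comparison. Of their tested genes, 7976 (39.8%), 7486 (38.7%) and 8139 (43.3%) were called for 67NR, 4T07 and 4T1. Of the 7141 control calls, 80.0%, 62.3% and 67.7% were called in the same direction in the 3 lines, which are 71.7%, 59.5% and 59.4% of each line's calls. Opposite calls numbered 0, 79 and 62. Giant cell genes were called higher in 15 of 16 cases in each line, with medians of 5.46, 4.71 and 5.58, beside 16 of 16 and 6.52 in control mice. These medians are of fitted values, and the control median was 4.90 with 1 gene at its bound. All 14 fibroblast and all 14 lysosome genes were called higher, and all 14 erythroid genes lower, in each line. B cell genes fell in 15, 14 and 14 of 16 cases, with medians of -5.28, -3.92 and -4.51. All 13 neutrophil genes were called lower in scaffolds of the 4T07 and 4T1 mice, with medians of -3.01 and -3.75, beside 7 in control mice and 6 in 67NR mice.

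Whether the difference between the tissues itself changed with the tumor was tested as an interaction over 24 libraries. For 67NR none of 24779 genes was called by edgeR, with 1805 at an unadjusted p under 0.05, and DESeq2 called 42. For 4T07 2857 genes (11.5%) and for 4T1 2640 genes (10.7%) were called. The 2 comparisons share the control libraries. The genes picked by size came from the named genes, many of them chosen by their change in these control libraries. Such a choice favors differences that oppose the control change. Among the genes picked by size, Ccl8 had the smallest adjusted p. In 4T07 mice it was at 448, 562 and 688 CPM in scaffolds and at 169, 118 and 81.6 CPM in spleens, so that its log2 fold change of 8.84 in control mice was 2.06 there, a difference of -6.76 (SE 0.46, adjusted p = 9.57e-10). All 3 of these spleens exceeded every control spleen, and all 3 scaffolds were below every control scaffold. The labels give no batch, so that handling of the tumor-bearing and the control mice and the effect of the tumor cannot be told apart.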

How the data were processed

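The libraries were made by the authors with a 3' tag kit that carries unique molecular identifiers, so a count stands for reads near the 3' end of a transcript. The authors deposited whole-number counts per gene symbol, without normalization. The submitters' processing notes name Trim Galore 0.5.0, STAR 2.6.0 and featureCounts, and the genome build, the annotation, the strand setting and the collapse of identifiers are not given in the sources used here. Without a stated strand setting, reads of overlapping and antisense genes could not be told apart.

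Lines that repeat a symbol (120 of 55487) were summed, and 55367 symbols remained. Genes with more than 10 counts over the 3 control scaffolds and 3 control spleens were tested with edgeR 4.0.16 in R 4.3.3 (TMM factors of 0.896 to 1.10, quasi-likelihood F test, Benjamini-Hochberg adjustment over all genes tested). Genes with an adjusted p below 0.10 and more than a 2-fold change were called. DESeq2 1.42.0 was an alternative. SE is the log2 fold change divided by the square root of F. CPM values carry no TMM factor. List medians are of fitted log2 fold changes, including those of genes with no count in 1 tissue, unless a bound is named. Where a tissue had no count, the fold is a bound against 3 counts per library, and where it had 1 to 3 counts in all, the ratio of pooled levels is given with an exact 95% binomial interval. Both cover counting error only.

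The comparison and the 42 gene lists were chosen with earlier results of these data known. Named genes are the 10 largest changes in each direction, and in each list the first 3 genes and the 4 largest called changes of genes with separate libraries and a mean of at least 10 CPM, and for the interaction the 2 largest in each direction among these. All other genes in the text were picked with their values in view, and some genes that the rule names are not reported here. No 2 control libraries of a tissue were identical. On simulated counts for this comparison, edgeR recovered 87% of 200 genes changed 4-fold among 19218 genes, with 8.90% of its calls in unchanged genes, and DESeq2 84%, with 7.69%. For the simulated interaction edgeR recovered 82% of 200 genes among 24257, with 6.29% of calls in unchanged genes. In both simulations the changed genes were drawn from genes above a minimum level, and all other genes had equal mean levels in all groups. In the real control comparison 36.3% of genes were called, so these rates need not hold for it. Promoters are RefSeq sequences of GRCm38.p6, found for 12695 tested genes.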

Additional observations from a re-analysis of the deposited data

Results flagged for a closer look

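The difference between scaffold and spleen itself differed between tumor-bearing and control mice for 2857 genes in 4T07 mice and for 2640 genes in 4T1 mice (edgeR interaction test, adjusted p under 0.10 and over 2-fold), and 7 of the named genes are given here as values. Many named genes were chosen for a large change in the control libraries, which also enter this test. Such a choice favors differences that oppose the control change, as all 7 do. How far it contributed was not tested. Batch and tumor cannot be told apart in these comparisons.

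In 4T07 mice Iglc1, an immunoglobulin light chain, was at 64.2, 11.8 and 4.97 CPM in scaffolds and 176, 227 and 230.2 CPM in spleens, so that its log2 fold change of -6.75 in control mice was -3.11 there, a difference of 3.66 (SE 0.78, adjusted p = 0.00342). The level was highest in 4T07 scaffold 1, and no fit without that library was made.

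For the chemokines Ccl7 and Ccl8 the difference between the tissues was smaller in 4T07 mice. Ccl8 differed by -6.76. Ccl7 was at 8.93, 8.65 and 12.9 CPM in scaffolds and 4.94, 2.42 and 0 CPM in spleens of 4T07 mice, where control spleens had no count, and its fitted difference of -7.50 (SE 1.51, adjusted p = 0.00292) depends on the prior count.

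In 4T1 mice, Csf3r was at 8.16, 18.3 and 11.1 CPM in scaffolds and 45.8, 48.5 and 47.1 CPM in spleens, a difference from control mice of -3.50 (SE 0.49, adjusted p = 7.46e-05). Hdc was at 135, 248 and 139 CPM in scaffolds and 180.3, 135 and 194 CPM in spleens, a difference of -3.28 (adjusted p = 0.00107). Both rested in part on control scaffold 2: without it the difference was -2.62 for Csf3r (edgeR, adjusted p = 0.000299) and -1.91 for Hdc (adjusted p = 0.00214). Cd3g, of the T cell receptor complex, was at 1.14, 1.68 and 0.898 CPM in scaffolds and 3.60, 6.12 and 4.80 CPM in spleens, below every control spleen, and differed by 3.09 (adjusted p = 0.00168). Apol11b differed by 3.02 (SE 1.12, adjusted p = 0.0891), and this call was lost when control scaffold 1, 2 or 3 or control spleen 2 was left out.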

How the results depend on the processing

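No named gene reversed under any alternative that gave it an adjusted p. Of 223 named genes 201 kept their side of the threshold in every such alternative, while 22 gained or lost a call in at least 1. Named genes to which DESeq2 gave no adjusted p were not counted as changed by it. DESeq2 called 188 of the named genes, beside 198 called in the main test. Requiring at least 10 counts in each library, which leaves fewer genes to test, gave 3316 genes called, 1674 higher and 1642 lower, with 243 calls among genes of the lists (389 with the filter used here) and 120 among named genes (198 with that filter). An adjusted p under 0.01 with a fold over 4 gave 2837. The interaction in 67NR mice, with none called, gave 42 with DESeq2 and 4 without Control scaffold replicate 2 (0 to 4 over the 6 libraries left out). DESeq2 called 6351 genes in the control comparison, 6313 of them also called by edgeR in the same direction. With library totals in place of TMM factors the median of all genes was -0.24, and 2927 genes were called higher and 4317 lower. Leaving out 1 library at a time gave 6455 to 7154 genes called, and for the interaction 2240 to 3282 in 4T07 and 2144 to 2921 in 4T1 mice. An alternative added after the data were seen, without scaffold 2 and spleen 2 together, changed the call of 17 named genes. No paired analysis was possible because the labels do not link the scaffold and the spleen of a mouse. With 3 libraries per tissue and a floor of 0.472 to 0.692 CPM, the values of genes near 1 CPM rest on a few counts per library.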

Other observations

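After the values were seen, 5 further gene lists were written, and their counts are a description only. Of 17 subunits of the vacuolar proton pump, which acidifies lysosomes and the resorption space of osteoclasts, 16 rose in scaffolds and none fell, with a median log2 fold change of 2.43. Among them, Atp6v0d2 is also on the giant cell list. Atp6v1a, a catalytic subunit, was at 2096, 1583 and 1905 CPM in the scaffolds and 115, 79.4 and 138 CPM in the spleens (4.25), and Atp6v0a1 was the subunit not called (0.81). Tcirg1, the membrane subunit used by osteoclasts, was at 78.7, 156 and 189.5 CPM in the scaffolds and 26.0, 25.6 and 26.1 CPM in the spleens (2.60), lowest in scaffold 1.

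Of 12 genes of osteoclasts beyond the giant cell list 9 rose and none fell, with a median of 2.04. Slc9b2, a sodium-proton antiporter, was at 61.0, 62.7 and 73.8 CPM in the scaffolds and 0.388, 0.231 and 0 CPM in the spleens, where 3 spleen counts gave a pooled ratio of 312 (95% counting interval 107 to 1516). The transcription factor Fosl2 was at 65.7, 125 and 120.3 CPM in the scaffolds and 15.7, 10.4 and 10.1 CPM in the spleens (3.24). The calcitonin receptor Calcr was at 1.89, 1.58 and 2.68 CPM in scaffolds with no spleen count, at least 3.20-fold higher. Nfatc1, the master factor of osteoclasts, was at 43.8, 69.4 and 76.3 CPM in the scaffolds and 50.7, 58.8 and 84.5 CPM in the spleens, with overlapping libraries (0.13).

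The metallothioneins Mt1 and Mt2, which bind zinc and copper, rose beside Mt3: Mt1 was at 409.7, 367 and 438 CPM in the scaffolds and 56.1, 83.8 and 124 CPM in the spleens (2.38) and Mt2 at 295, 249 and 215 CPM in the scaffolds and 37.7, 42.7 and 58.0 CPM in the spleens (2.64). Of 14 interferon-induced genes 2 rose and 1 fell, with a median of 0.46. Rsad2, an antiviral enzyme, was the gene that fell, at 248, 322 and 275 CPM in the scaffolds and 1026, 1429 and 1375 CPM in the spleens (-2.01). Of 10 genes of DNA replication 6 fell and none rose, with a median of -1.55. Mcm2, Mcm3, Mcm5, Mcm6 and Pcna among them are also on the cell cycle list.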
